A study of Mus musculus with 16 samples.

Results

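The 8 untreated explants of mouse epicardium are described here as a baseline: which genes their RNA held, at what level, and how far the 8 differed from each other. They are the 8 control samples of a series of 16 and were selected by their label alone. Each is a primary explant from C57BL6 mice, a piece of tissue set on a 1% collagen gel so that its cells grow out, annotated by the submitters as epicardial cells and cultured without blebbistatin, an inhibitor of myosin II that the other samples received. The sources used here do not give the age, stage or sex of the mice, or whether the controls received a solvent. Nothing in the labels says that the explants came from separate animals, so the spread between them, and the p-values that rest on it, may be partly technical.

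The epicardium is the mesothelial layer that covers the heart. Its cells carry the transcription factors Wt1, Tbx18 and Tcf21, make retinoic acid through Aldh1a2, and can lose their epithelial form in an epithelial-to-mesenchymal transition that yields fibroblasts and the mural cells of coronary vessels. In culture such cells spread over the gel and can undergo this transition. Resident macrophages live in and under the epicardium and depend on Csf1r, the receptor for Csf1.

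Total counts per explant ran from 27065611 in control 1 to 60321622 in control 5, with a median of 31274456, so that a level of 5 CPM (counts scaled to a common library total by the TMM method over the 8 libraries) stood for at least 122 counts. Of the 15805 genes in the table, 15634 to 15795 had a count in an explant, and the mitochondrial genome held 13.8% to 18.9% of the counts. The 5 most counted features took 33.9% in control 1 and 23.3% in the explant with the lowest share. Correlations of log2 CPM between explants ran from 0.881 (controls 1 and 6) to 0.959 (controls 2 and 5), and no explant repeated another.

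Mitochondrial and matrix RNAs were prominent among the most abundant transcripts. The mitochondrial ribosomal RNAs mt-Rnr2 (mean 91817 ± 10922 CPM, SD, n = 8 here and below) and mt-Rnr1 (56535 ± 13361) led, followed by Lars2 (51138 ± 11111), the leucyl-tRNA synthetase of mitochondria, the predicted gene Gm42418 (45124 ± 16290.5), and the identifier ENSMUSG00000089855 (16002 ± 4021), for which no symbol was matched. Lars2, Gm42418 and that identifier were all highest in control 1, at 76309.5, 82173 and 25716 CPM. Next came Sparc (9529 ± 944), a secreted collagen-binding protein, mt-Co1 (6527 ± 1361), Fn1 (6522 ± 1112), which encodes fibronectin, the nuclear RNA Malat1 (4682 ± 2109) and the predicted short RNA gene Gm23935. Col1a1 (3977 ± 898), which encodes a chain of type I collagen, the proteoglycan Bgn, the protease inhibitor Timp2, Actb, Col1a2, the lysosomal protease Ctsd and the imprinted gene Peg3 were also among the 20 highest.

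Per kb of exon, which allows levels to be compared between genes, Sparc stood at 2516 CPM per kb, Actb at 1320.1, Ctsd at 1218, Timp2 at 931, Col1a1 at 606 and Fn1 at 558. Lyz2 stood at 729, but without control 6 the mean of Lyz2 was 596 CPM, against 959.5 over all 8. On the same scale the mesothelial gene Upk1b stood at 484 and the smooth muscle actin Acta2 at 471. The 10 highest levels per kb belonged to short RNA genes such as Gm23935, to both mitochondrial ribosomal RNAs, to Gm42418 and to Lars2 (4612). Genes with near-identical copies (mitochondrial genes and their nuclear pseudogenes, actins, ribosomal proteins, Lyz2 and Lyz1) have uncertain levels, because the sources used here do not say how shared reads were counted. Whether reads of other RNAs were counted under Lars2, Gm42418 and ENSMUSG00000089855 was not tested, so their levels may not be those of their own transcripts.

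The epicardial label was checked against its markers, and these were present in every explant. The samples are bulk RNA, in which fewer cells of a type and less RNA per cell cannot be told apart. Of 32 genes of epicardium and mesothelium, 30 were measured and 27 had a mean of at least 5 CPM. The mesothelial surface genes were high: Lrrn4, a leucine-rich repeat membrane protein, ran from 638 in control 6 to 2486 in control 8, median 1664 CPM. The uroplakin Upk1b ran from 614 in control 6 to 1328 in control 1, median 1019.7. A second uroplakin, Upk3b, ran from 368 in control 6 to 1403 in control 1, median 753. Mesothelin, Msln, ran from 358 in control 2 to 643 in control 1, median 458. For Lrrn4, Upk1b and Upk3b the lowest explant was control 6, and controls 1 and 8 were the highest pair.

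Transcription factors of the layer were lower in CPM. Wt1 (GRCm38 chromosome 2, 105126529 to 105173616) ran from 54.995 in control 6 to 103 in control 1, median 72.2 CPM, with an SD of log2 CPM of 0.32. Tbx18 ran from 28.1 in control 6 to 71.7 in control 8, median 50.8, and Tcf21 from 48.3 in control 5 to 84.8 in control 8, median 57.6. Aldh1a2, the retinoic acid enzyme, stayed at 54.5 to 83.2 CPM (SD of log2 CPM 0.22). The simple epithelial keratins were low: Krt19 ran from 9.65 in control 4 to 52.1 in control 2, median 33.01, and Krt8 from 9.77 in control 6 to 43.004 in control 1, median 23.2. Krt19 was lowest in controls 4 and 6, at 9.65 and 13.2, against at least 29.4 in the other 6. Podxl, a sialomucin of mesothelial and podocyte surfaces, was the only epicardial gene of the 27 (3.70%) with an SD of at least 1, a share near the 2.85% of all genes of at least 5 CPM, at 1.41 in control 4 to 22.2 in control 2, median 12.3 CPM. Its SD was 1.29, and 0.69 without control 4. Summed over the list, the level ran from 3985 CPM in control 6 to 8427 in control 8.

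Junction genes were also present, with the catenins Ctnna1 at 351 ± 50.7 CPM and Ctnnb1 at 322 ± 58.6 and plakoglobin, Jup, at 239 ± 37.6. The claudin Cldn3 was low and variable, at 14.8 CPM in control 1 and 1.38 in control 4. Among transcription factors of the epithelial-to-mesenchymal transition, Zeb2 (150.3 ± 39.1 CPM) and Zeb1 (76.3 ± 12.4) were the highest, Snai2 stood at 23.7 ± 10.2 and Snai1 at 5.75 ± 3.004. Snai1 was at 2.64, 2.02 and 2.27 CPM in controls 2, 3 and 6 and at 6.22 or more in the other 5.

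**Figure D1:**
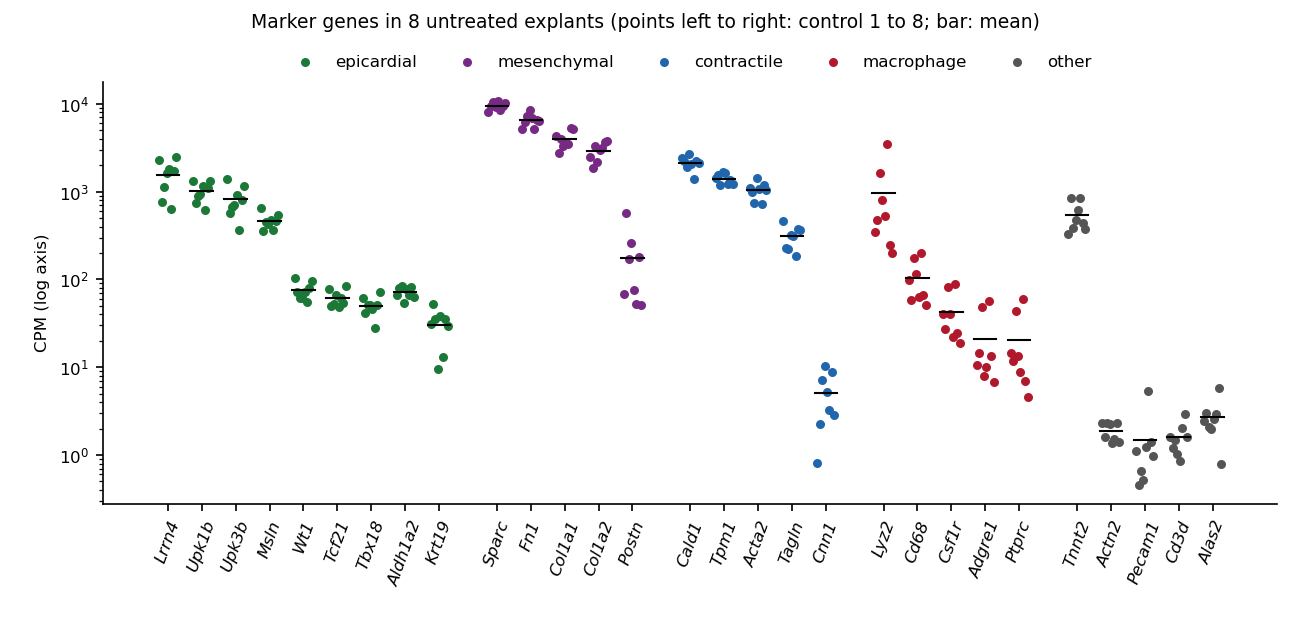
Level in CPM (log axis) of marker genes of 5 kinds, with 1 point for each of the 8 explants, in the order control 1 to 8 from left to right, and a bar at the mean. Most epicardial, mesenchymal and contractile genes spread less than the macrophage genes, Krt19, Postn and Cnn1 being exceptions. Controls 3 and 6 lie at the top of the macrophage genes, and the last 4 genes of other cell types lie at a few CPM.

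Mesenchymal genes were abundant, summing to 18574 to 24633 CPM, with a median SD of 0.40 against 0.37 over all genes of at least 5 CPM. Of the 21 mesenchymal genes of at least 5 CPM, 1 (4.76%) had an SD of at least 1, where 2.85% of all such genes did. Sparc ran from 8109.9 in control 1 to 10735 in control 5, median 9469 CPM, and its SD of log2 CPM was 0.14. Fn1 ran from 5137 in control 6 to 8540.2 in control 4, median 6473. Fstl1, a secreted follistatin-like protein of the epicardium, stood at 1381 ± 219, and the fibulin Fbln2 at 1284 ± 361. Among members outside the naming rule, picked after their values were seen, the intermediate filament Vim stood at 817 ± 91.6, the proteoglycan Dcn at 1013 ± 175 and the receptor Pdgfra at 125 ± 39.2.

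That gene was Postn, which encodes periostin, a matrix protein of activated fibroblasts. Its values in controls 1 to 8 were 67.9, 566, 169, 256, 75.4, 52.1, 178 and 50.7 CPM, so control 2 was highest and 4 explants lay below 100 CPM (mean 177 ± 174, SD of log2 CPM 1.25). The 27 collagens and their enzymes summed to 15321 to 23337 CPM. Col1a1 (GRCm38 chromosome 11, 94936224 to 94953042) ran from 2741 in control 2 to 5274 in control 7, median 3769 CPM and Col1a2 from 1847 in control 2 to 3724 in control 8, median 3073. The cross-linking enzyme Lox stood at 1920.05 ± 478 and Col8a1, a network collagen, at 1977 ± 595. Col14a1, a fibril-associated collagen, was the only 1 of 26 members of at least 5 CPM (3.85%, against 2.85% of all genes) with an SD of at least 1, at 3.21 in control 8 to 35.5 in control 6, median 12.8 CPM.

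Contractile genes were expressed in all 8. The actin-binding protein Cald1 stood at 2141 ± 387 CPM, the tropomyosin Tpm1 at 1409 ± 195, filamin A, Flna, at 1055 ± 123, and Acta2 (GRCm38 chromosome 19, 34241090 to 34255590) at 1034 ± 232. Acta2 ran from 716 in control 6 to 1438 in control 4, median 1053, and Tagln, which encodes transgelin, from 185 in control 6 to 468 in control 1, median 317. Controls 3 and 6 were the lowest pair for both genes, an order whose share over all genes was not counted. Markers of mature smooth muscle were far lower: calponin, Cnn1, ran from 0.818 in control 1 to 10.3 in control 4, median 4.21, and the enteric actin Actg2 from 4.15 in control 2 to 40.7 in control 4, median 8.32. These were the 2 of 20 contractile genes (10%) whose SD reached 1, against 2.85% of all genes.

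The nonmuscle myosin II list holds chains of that myosin, the target of blebbistatin, together with regulators such as Rock1, Rhoa and Ppp1cb. It had the lowest median SD of log2 CPM of any list with a member of at least 5 CPM, at 0.21 over 11 genes. The median was 0.37 over all 10473 genes of at least 5 CPM and 0.25 over those of at least 100 CPM. The median level of the list was 189 CPM, and spread fell with level across genes. The myosin heavy chain genes Myh10 and Myh9 stood at 918 ± 114 and 569.9 ± 77.3 CPM. Targets of SRF and YAP, transcriptional regulators that respond to actin tension, were lowest in control 6, where their sum was 2876 CPM against 5497 in the highest explant. Ccn2, a matricellular YAP target, was at 271 CPM in control 6 and 537 to 899 in the others, and Ccn1 at 381 in control 6 and 537 to 855 in the others.

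Macrophage genes differed widely between explants. The summed level of the macrophage genes in controls 1 to 8 was 761, 822, 2623, 1341, 776, 4821, 514 and 373 CPM. Controls 3 and 6 were the highest and control 8 the lowest, and the highest sum was 12.9 times the lowest. Without controls 3 and 6, left out after the data were seen, it was 3.59 times the lowest. Over all 8 explants the epicardial sum differed by 2.11 times and the mesenchymal sum by 1.33 times. In control 6, which held the most macrophage RNA, the epicardial, contractile, and SRF and YAP sums were at their lowest. The drop was not particular to these lists. The mesenchymal, junction, nonmuscle myosin II, heart transcription factor, p53 target and imprinted gene sums were also lowest there, while the collagen sum was lowest in control 2. Whether the macrophage RNA had a part in those lower values was not tested.

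**Figure D2:**
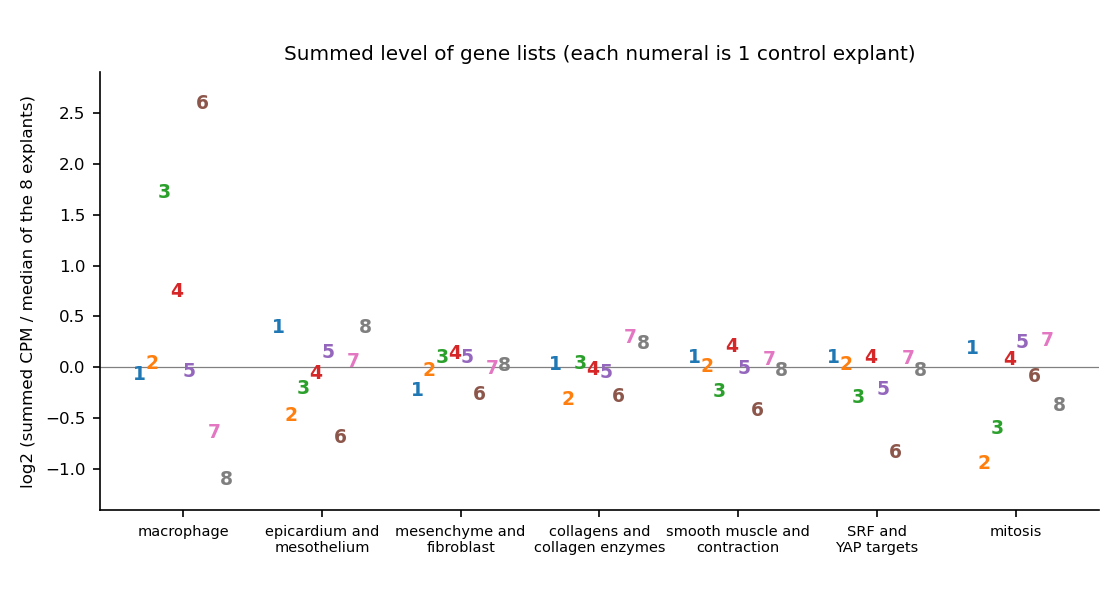
Summed CPM of 7 gene lists in each control explant, as log2 of the ratio to the median of the 8, with each explant drawn as its number. Macrophage genes rise to the top in explants 3 and 6, while the other lists stay within about 1 log2 unit of their median.

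Of the 16 macrophage genes of at least 5 CPM, 12 had an SD of log2 CPM of at least 1, where 2.85% of all tested genes did, and their median SD was 1.25. Without controls 3 and 6 the number was 2. Lyz2 (GRCm38 chromosome 10, 117277331 to 117282321), the lysozyme of myeloid cells, was at 350.2, 469, 1612, 811, 524, 3461, 249 and 200.1 CPM in controls 1 to 8. Control 6 stood highest and control 3 next, followed by control 4. The receptor Csf1r was at 39.9, 27.3, 81.4, 40.4, 22.1, 88.8, 24.4 and 18.7, in which controls 3 and 6 lay above 80 CPM and no other explant reached 41. The leukocyte phosphatase Ptprc (CD45) was at 14.4, 11.7, 43.6, 13.6, 8.80, 59.9, 7.05 and 4.59, and Adgre1 (F4/80) at 10.5, 14.6, 48.7, 7.95, 10.1, 56.8, 13.4 and 6.78. Both genes separated controls 3 and 6 from the other 6 explants without overlap.

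The lysosomal glycoprotein Cd68 had a mean of 104 ± 56.8 CPM and was highest in control 6 and lowest in control 8, at 51.4. The range of the cysteine protease Ctss was 9.80 in control 8 to 139 in control 6, median 36.4, and that of the complement gene C1qc 3.19 in control 8 to 52.2 in control 6, median 10.4. The fractalkine receptor Cx3cr1 separated the explants less, control 1 (11.6 CPM) being close to controls 3 and 6 (12.4 and 14.5). All 16 had controls 3 and 6 as their 2 highest explants, which 7.54% of genes of at least 5 CPM did. Csf1, the ligand of Csf1r, went the other way in level: 293 in control 6 to 867 in control 4, median 655 CPM, with controls 3 and 6 the lowest pair. Its r with Csf1r was -0.67 across the 8 explants, short of the -0.8 that 1.83% of genes reached. The share of all genes with controls 3 and 6 as their lowest pair was not counted. Whether this order was particular to Csf1 was not tested.

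Genes of other blood and vessel cells were mostly low. Of 13 lymphocyte genes 3 were measured: Cd3d, a T cell receptor chain, at 0.863 to 2.93 CPM and Ms4a1 (CD20) at 1.16 to 2.65, while Il7r, a cytokine receptor, had its highest values in controls 3 and 6 (42.7 and 32.7). The erythroid list was represented by Alas2 alone, at 0.785 to 5.76 CPM. Of 18 endothelial genes 10 were measured. Their sum in controls 1 to 8 was 96.5, 208, 164, 173, 95.9, 190, 124 and 97.9 CPM, highest in control 2. The adhesion molecule Pecam1, picked after its values were seen, was at 5.41 CPM in control 6 and at most 1.40 elsewhere, and Vwf, the von Willebrand factor, at 28.6 in control 6 and at most 4.72 elsewhere. The VEGF receptor Flt1 (22.5 to 106) and Tek (24.95 to 48.4) were measurable in all 8.

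Cardiomyocyte genes gave a split picture. The troponin Tnnt2 ran from 331 in control 1 to 855 in control 6, median 455 CPM and the atrial light chain Myl7 from 46.7 in control 3 to 138 in control 8, median 100.4. The sarcomere gene Actn2, picked after its values were seen, lay at 1.38 to 2.33 CPM and Myh6, picked the same way, at no more than 3.18. The cardiac actin Actc1, likewise, was at 8.05 and 6.12 CPM in controls 2 and 7 and at most 0.24 in the other 6. The heart transcription factors Gata6 (126 ± 22.8) and Gata4 (97.6 ± 26.8) were steady apart from Gata4 in control 6, at 40.9 CPM against at least 87.3 elsewhere.

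Proliferation genes were expressed throughout. The 25 mitosis genes summed to 944, 434, 547, 880.05, 984, 785, 999 and 643 CPM in controls 1 to 8, lowest in control 2 and second lowest in control 3. Mki67, the proliferation antigen Ki-67, ran from 95.3 in control 2 to 209.9 in control 5, median 183, and the topoisomerase Top2a from 62.4 in control 2 to 164 in control 5, median 101. Cyclin B1, Ccnb1, was at 7.54 and 6.54 CPM in controls 2 and 3 and at least 22.7 in the other 6.

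Across all genes most SDs were small, but pairs of explants still differed. Within a pair, 5.30% (controls 2 and 5) to 18.9% (controls 1 and 6) of genes of at least 5 CPM differed by at least 2-fold. Of 10473 genes with a mean of at least 5 CPM, 7545 (72.0%) had an SD of log2 CPM under 0.5 and 298 (2.85%) an SD of at least 1. Most of the 298 were low: 255 had a mean of 5 to 20 CPM, 36 of 20 to 100 and 7 of at least 100. The 7 were Lyz2, Xist, Spp1, Postn, C3ar1, Igf1 and Anpep, of which Spp1, C3ar1 and Igf1 were named after their values were seen. Xist fell below an SD of 1 without control 4, at 0.72. The common biological coefficient of variation, which takes out counting error, was 36.9%. The 10 steadiest genes of at least 50 CPM included the Golgi retrieval protein Rer1 (82.96 to 92.6 CPM), the endoplasmic reticulum oxidase Ero1l (231 to 269), the ubiquitin ligase Ubr4 (253 to 301) and the histone methyltransferase Kmt2d (134 to 155).

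**Figure D3:**
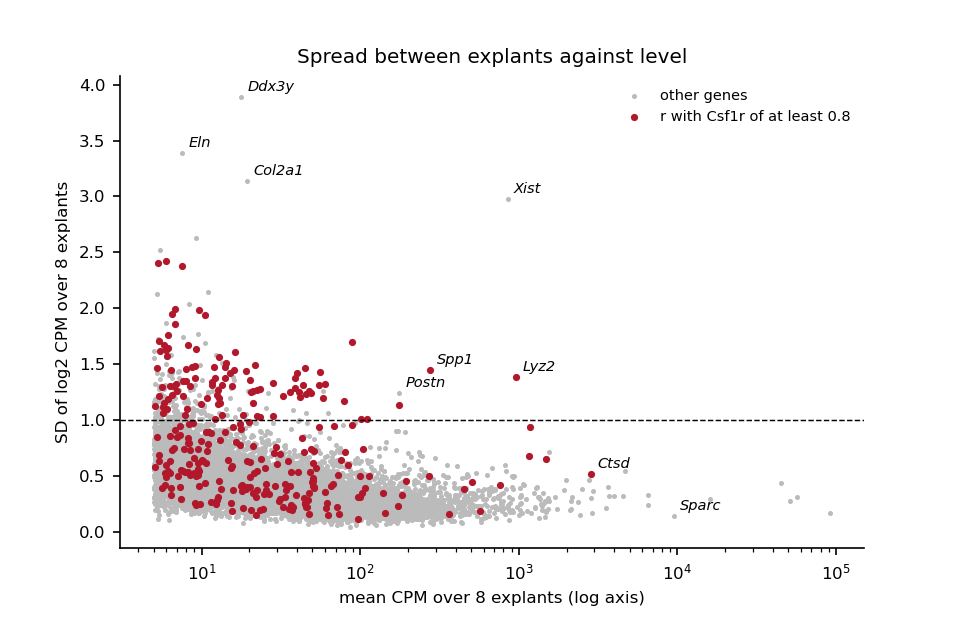
SD of log2 CPM over the 8 explants against mean CPM (log axis) for the 10473 genes of at least 5 CPM, with the genes whose r with Csf1r was at least 0.8 in red and the SD of 1 dashed. Spread falls as level rises, and most of the well-expressed genes above the line are red, Xist and Postn being exceptions.

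Controls 3 and 6 held the highest value of most variable genes. Of the 298 variable genes, 119 were highest in control 6 and 60 in control 3. The same counts over all genes were not made, and control 6 had the lowest mean correlation with the other explants (0.905). The counts therefore do not show that variable genes differed from other genes in this. Without controls 3 and 6, a choice made after the data were seen, 158 genes had an SD of at least 1. Of the 43 variable genes with a mean of at least 20 CPM, 36 had controls 3 and 6 as their 2 highest explants, and 34 had an r with Csf1r of at least 0.8. Over all genes of at least 5 CPM these shares were 7.54% and 2.7%. The 43 were picked for their spread, to which controls 3 and 6 added, so these 2 counts are no separate evidence. Spp1 (osteopontin), a secreted phosphoprotein, was at 167, 108, 485, 183, 149, 996, 81.6 and 39.9 CPM in controls 1 to 8. Igf1, a growth factor, was at 63.4, 76.5, 236, 145, 68.1, 214, 51.6 and 32.98, and the anaphylatoxin receptor C3ar1 at 81.9, 142, 338, 162, 83.8, 464, 87.5 and 43.7. All of these were highest in controls 3 and 6.

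**Figure D4:**
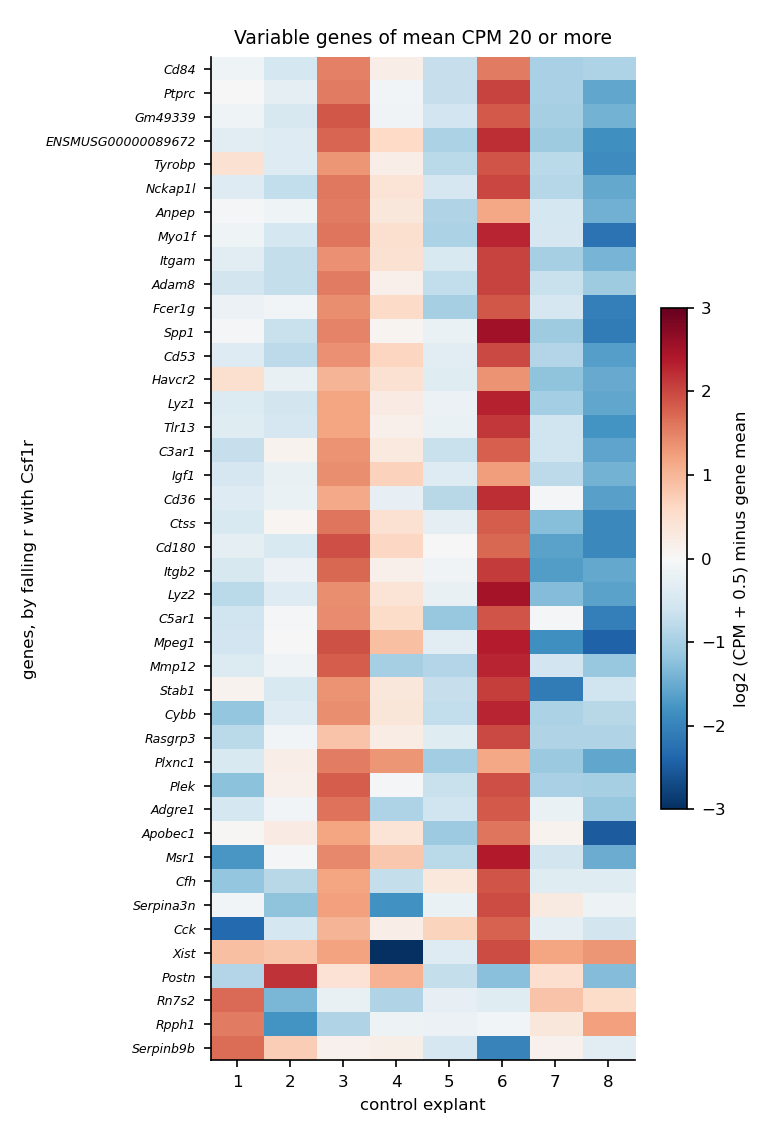
Levels of 42 of the 43 genes with an SD of at least 1 and a mean of at least 20 CPM, as log2 (CPM + 0.5) minus the mean of each gene, by control explant and ordered by r with Csf1r. Explants 3 and 6 are red for nearly all rows of the upper part, and Postn, Rn7s2, Rpph1 and Serpinb9b at the bottom follow other orders.

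The first principal component held 29.2% of the variance and set controls 3 and 6 apart from the other 6, with controls 1 and 8 at the far end. The second held 16.6% and set control 4 apart, and the third, with 15.1%, separated control 3 from control 6. Component 1 rose with the myeloid genes Arhgap25, Coro1a, Nfam1, Hk3 and the chemokine Ccl3. Ccl3 was at 16.1 and 28.3 CPM in controls 3 and 6 and at most 3.12 elsewhere, and Coro1a, an actin regulator of leukocytes, at 29.2 and 10.3 and at most 3.07 elsewhere.

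**Figure D5:**
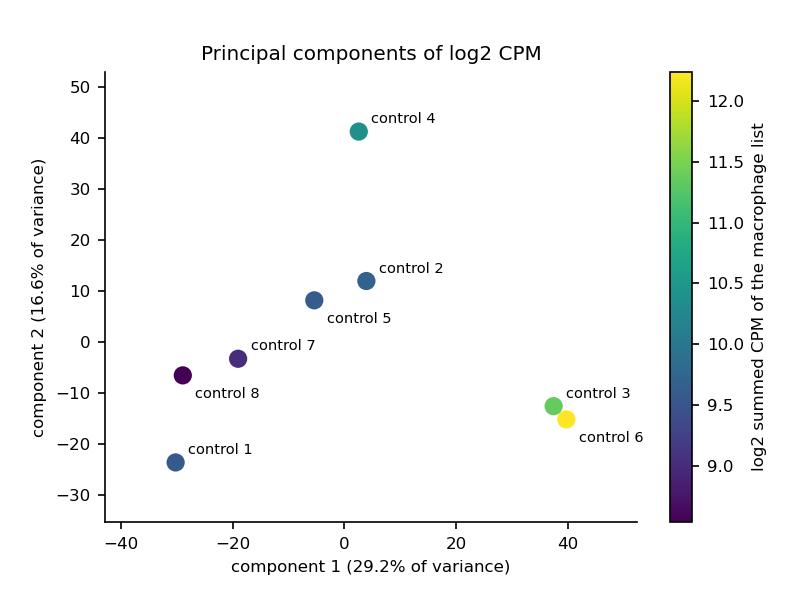
The 8 explants on the first and second principal components of log2 CPM over genes of at least 5 CPM, coloured by log2 of the summed CPM of the macrophage list. Controls 3 and 6 lie together at the right and have the highest macrophage sums, and control 4 lies alone at the top.

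Grouping the 269 variable genes with assigned names by correlation (average linkage, joined at a mean r of at least 0.7, a description made after the data were seen) gave 13 groups of 5 or more genes. The largest held 99 genes, among them 12 of the macrophage list, and 87 had an r with Csf1r of at least 0.8. Of all 298 variable genes, 100 (33.6%) reached that r. The genes were grouped by correlation of the same values, so the 87 restate the grouping and are no separate evidence. The largest group included Spi1, which encodes the myeloid transcription factor PU.1 (mean 5.56 ± 4.95 CPM), the lipid receptor Trem2 (12.7 ± 15.1, and a mean of 7.54 without control 6), the pore-forming protein Mpeg1 (89.2 ± 94.7) and the macrophage elastase Mmp12 (59.6 ± 66.4), all named after their values were seen. The other groups held 5 to 10 genes each.

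PU.1 binds a purine-rich element, so the promoters of the 99 genes were searched for short motifs, all of them chosen after the group was seen. Promoters are RefSeq windows of 250 bases before to 50 after the start site on build GRCm38.p6, and 76 of the 99 genes had an entry. On either strand, GAGGAAGT was found in 12 of the 76 (15.8%), against 3.63% of 7820 genes of at least 5 CPM with an entry and 3.69% of all 27025 genes. It was one of 6 motifs searched, and no test was made on any of them. The shorter overlapping forms GAGGAA and GGAAGT were in 52.6% and 50% of the 76, against 30.4% and 32.8% of the 7820. Over all 27025 genes they were in 31.3% and 26.5%. TTCCGGT was in 1.32% of the 76 against 8.68% of the 7820, CCAAT in 38.2% against 42.5%, and TATAAA in 17.1% against 8.49%. Over all 27025 genes these 3 were in 4.22%, 41.1% and 15.7%, so the share of TATAAA was near that of all genes. In the 22 mitosis genes with an entry, looked at in the same search, CCAAT was in 20 (90.9%). A match of letters is not a binding site. The 3 promoters of highest mean CPM among the 12 are shown to place the element, with the match in capitals (GAGGAAGT, or ACTTCCTC where it lies on the opposite strand) and the sequence 5′ to 3′ on the strand of the gene.
Spp1, chr5:104434861-104435160, + strand: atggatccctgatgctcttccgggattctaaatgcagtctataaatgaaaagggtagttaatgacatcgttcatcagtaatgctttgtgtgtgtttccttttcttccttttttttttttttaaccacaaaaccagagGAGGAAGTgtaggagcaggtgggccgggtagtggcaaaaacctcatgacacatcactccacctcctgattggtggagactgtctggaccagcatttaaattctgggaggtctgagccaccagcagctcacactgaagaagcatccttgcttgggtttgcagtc
Mmp12, chr9:7344147-7344446, + strand: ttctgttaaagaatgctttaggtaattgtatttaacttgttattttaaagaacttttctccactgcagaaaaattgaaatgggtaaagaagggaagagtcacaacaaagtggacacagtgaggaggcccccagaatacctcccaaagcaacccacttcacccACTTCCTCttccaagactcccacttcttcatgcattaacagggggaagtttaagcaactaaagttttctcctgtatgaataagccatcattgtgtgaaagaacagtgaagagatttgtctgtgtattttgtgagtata
Ctss, chr3:95526536-95526835, + strand: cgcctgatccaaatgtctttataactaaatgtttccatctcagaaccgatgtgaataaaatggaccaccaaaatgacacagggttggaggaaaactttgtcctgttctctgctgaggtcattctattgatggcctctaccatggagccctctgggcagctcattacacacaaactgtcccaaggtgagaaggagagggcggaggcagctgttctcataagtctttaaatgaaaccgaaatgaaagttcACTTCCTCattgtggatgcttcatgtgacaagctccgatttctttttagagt

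Likeness to 5 anchor genes was measured as Pearson's r of log2 CPM over the 8 explants, a description in which all points share libraries. For Csf1r, 2.7% of the other 10472 genes had an r of at least 0.8 and 1.83% an r of -0.8 or lower. All 15 other macrophage genes of at least 5 CPM had an r of at least 0.8. Without controls 3 and 6 the number was 8, where 2.78% of the 10472 genes reached 0.8. The most alike were Ctsd (0.99), the immune receptor Cd84 (0.98), Cd68 (0.98), Ptprc (0.98) and the adaptor Tyrobp (0.97). Ctsd, at 2849, 2233, 4779, 2877, 1943, 4319, 1974 and 1934 CPM in controls 1 to 8, ranked among the 20 most abundant genes. The ephrin Efnb2 was the least alike (-0.95).

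All 25 mitosis genes had a positive r with Col1a1, at a median of 0.27, and none reached 0.8. For Mki67, 0.477% of genes had an r of at least 0.8 and 0.325% an r of -0.8 or lower. Of the 24 other mitosis genes, 8 reached 0.8 and all 24 were positive, at a median of 0.73, where 45.9% of all genes were positive. The kinetochore genes Knl1 (0.95) and Cenpf (0.90) were the most alike. For Acta2 the shares were 2.25% and 2.01%, with 3 of 19 other contractile genes and 3 of 16 SRF and YAP targets at 0.8 or more, and Ltbp1, a TGF-beta binding protein, the most alike (0.97). For Col1a1 the shares were 1.37% and 2.21%, with 2 of 25 other collagen genes at 0.8 or more. The cartilage-associated protein Crtap, a collagen-modifying factor, was among the 5 most alike (0.92). For Krt19 the shares were 1.01% and 0.84%, with 2 of 26 other epicardial genes at 0.8 or more.

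Of 16 gene pairs chosen for a test, 15 could be tested by a 2-sided exact permutation test over 40320 pairings of the 8 explants. None passed the Benjamini-Hochberg threshold of 0.05 over the 15. The highest r was that of Wt1 with Tbx18, at 0.79 (exact permutation p = 0.016, adjusted p = 0.154, Spearman's rho 0.74 with exact p = 0.0458), and it was 0.58 without the 2 explants farthest from the median of Wt1. Acta2 with Ccn2 gave an r of 0.76 (exact permutation p = 0.0262, adjusted p = 0.154, rho 0.62 with exact p = 0.115), and 0.30 without controls 3 and 6. Acta2 with Tagln gave 0.73 (exact permutation p = 0.0403, adjusted p = 0.154, rho 0.79 with exact p = 0.0279), and 0.22 without controls 3 and 6. Csf1r with the complement gene C1qa gave 0.73 (exact permutation p = 0.0412, adjusted p = 0.154, rho 0.62 with exact p = 0.115). Without controls 3 and 6 its r was 0.0041, so these last 3 relations rested on that pair of explants. C1qa was low, with a mean of 0.758 to 1.94 CPM when single explants were left out, under the 5 CPM used elsewhere. Whether counting error lowered its r among the remaining explants was not tested. Csf1r with Acta2 gave -0.65 (exact permutation p = 0.0777, adjusted p = 0.233, rho -0.36 with exact p = 0.389) and 0.59 without controls 3 and 6. Both Wt1 with Tcf21 (r 0.55, adjusted exact permutation p = 0.365) and Krt19 with Col1a1 (r 0.13, adjusted exact permutation p = 0.816) missed the threshold as well.

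Some genes were much higher in part of the explants. Col2a1, the collagen of cartilage, was at 0.491, 19.98, 42.5, 33.4, 18.8, 39.04, 0.25 and 0.523 CPM in controls 1 to 8, near 0 in controls 1, 7 and 8 and at least 18.8 in the other 5. Eln, which encodes elastin, was at 45.3 CPM in control 6 and at most 8.10 elsewhere. Lipoprotein lipase, Lpl, was at 209 CPM in control 6 and 39.7 to 70.2 in the other 7.

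Sex-linked genes split the explants. Ddx3y, a helicase gene of the Y chromosome, was at 85.4 CPM in control 4 and 55.3 in control 5, and at most 0.485 in the other 6. Uty followed, at 35.4 and 22.01 against at most 2.54. Xist, the noncoding RNA that coats an inactivated X chromosome, was at 2.92 CPM in control 4, 336 in control 5 and 788 to 1721 in the other 6. Control 5 thus held both Y-linked transcripts and Xist.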

How the data were processed

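RNA was extracted with the RNeasy Mini plus Kit, amplified with the Ovation RNA-Seq System V2 and made into libraries with Nextera XT, per the labels' protocols. The authors deposited raw read counts per gene, and this count is the unit used here. The submitters' processing notes name HTSeq 0.6.1p1, TopHat2 2.1.0, SAMtools 1.3, Bowtie2 2.2.6.0, edgeR and mm10 (GRCm38), while the sources used here do not give the role of each, the annotation, the filter or the strand setting. Reads of overlapping genes on opposite strands may therefore have been counted together. Each of the 15805 genes exceeded 1 CPM in at least 4 of the 16 libraries, as tested on the table, and lower genes were not analysed here. Symbols and positions came from GENCODE M21 by identifier (15665 matched), since 72 names were blank and 21 had become dates.

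Only the 8 control columns were used. Counts were scaled to CPM by TMM over these 8 (edgeR 4.0.16, R 4.3.3), with log2 CPM at a prior count of 2. Genes of mean CPM of at least 5 were compared, an SD of log2 CPM of at least 1 was called variable, and the common dispersion came from an intercept-only edgeR fit after filterByExpr. Fixed pairs were tested with 2-sided exact permutation tests and Benjamini-Hochberg adjustment. The scripts were tested on simulated data. Alternatives were library totals, DESeq2 1.42.0 size factors, totals without the top features, other prior counts and filters, and leaving out explants. Depth limits low genes most, and counting error is small at 5 CPM. Noise from the amplification was not separated from other spread between explants.

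The explants, the 33 gene lists and the pairs were chosen with earlier results of these data known. Genes were named by rule: the 20 highest by CPM and 10 per kb, the 20 largest and 10 smallest SDs, pair genes, the 4 highest and 2 most variable of each list, the 5 most and least alike to each anchor, and the 10 largest loadings at each end of 2 components. Others are said to have been picked after their values were seen. The gene groups, the 6 promoter motifs and the setting without controls 3 and 6 were also chosen after the data were seen. Of the 43 variable genes of mean CPM of at least 20, 1 is not reported here.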

Additional observations from a re-analysis of the deposited data

Results flagged for a closer look

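A value was singled out where 1 of the 8 explants stood apart, that is, where its gap to the nearest other, divided by the range of the 8, exceeded Dixon's 95% critical value for 8 values. Chance alone does so for about 1 in 20 values that are normally distributed and not chosen for their spread. Here 11 of 145 values tested did so, 6 of them in control 6. Some of the genes, such as Pecam1, were named for their spread or after their values were seen. The count therefore cannot be judged against that rate. In control 6 the ratio was 0.570 for Ccn2 (lowest), 0.639 for Gata4 (lowest), 0.657 for Lpl (highest), 0.561 for Pecam1 (highest), 0.578 for the sum of SRF and YAP targets (lowest) and 0.660 for the sum of adipocyte genes (highest), of which Lpl made up most. In control 4 it was 0.571 for Podxl (lowest) and 0.743 for Xist (lowest). In control 1 it was 0.759 for ENSMUSG00000089855 and 0.732 for the share of counts in the 5 most counted features, both highest. The total count of control 5 was the highest, with a ratio of 0.535. These lists share genes with the single genes named, so the values are not independent.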

How the results depend on the processing

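No paired analysis was possible because only the control explants were used and no groups were compared. Scaling by library totals or DESeq2 size factors and a prior count of 0.5 or 10 left the number of genes with an SD of at least 1 between 247 and 308, against 298. It was 495 when totals left out mitochondrial genes and the 10 most abundant genes, which lifts more low genes over 5 CPM, 1769 with a mean of at least 1 CPM, and 43 with a mean of at least 20 CPM, where fewer genes were tested. Leaving out 1 explant gave 231 to 375 genes, a first component of 29.6% to 34.4%, and a coefficient of variation of 36.1% to 38.5% (47.6% with no filter on low counts). Without controls 3 and 6, 158 genes had an SD of at least 1, as did 2 macrophage genes, 8 macrophage genes reached an r of 0.8 with Csf1r, and the macrophage sum differed 3.59 times. Of the pairs, Wt1 with Aldh1a2 (-0.04) turned to 0.07, 0.10 and 0.13 without controls 1, 3 and 8, and 0.044 without controls 3 and 6. Krt19 with Col1a1 turned to -0.15 and Krt19 with Acta2 to 0.54 without control 4, and Csf1r with Acta2 to 0.59 without controls 3 and 6. The cause was not tested. Over single explants left out, r of Wt1 with Aldh1a2 ran from -0.41 to 0.13, Krt19 with Col1a1 from -0.15 to 0.61 and Krt19 with Acta2 from -0.67 to 0.54. No pair passed the threshold of 0.05 under any of these settings. The pair Ifit1 with Irf7 gave no value, since Irf7 was not analysed here. Of 1188 SDs of named genes under the alternatives, 58 moved by over 1.5 times, and no mean CPM moved by more than the spread between explants.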
